A study of Mus musculus with 6 samples.

Results

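The nuclear genes of mitochondrial complex I were followed in aortae from which the transcription factor gene Srf had been deleted. Members were the rows of the deposited count table whose symbol is Nduf followed by a, ab, b, c, s, v or af and a number. This gave 45 genes of the 55453 in the table, of which 37 are named as structural subunits and 8, the Ndufaf genes, as assembly factors. All 45 passed the filter on low counts. The label holds for all but 1 of the structural members, since Ndufa4 is today counted with complex IV. Ndufb1 was not matched by this rule, and the row Ndufb1-ps, which RefSeq lists as an older name of that gene, is given apart.

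The mice had a floxed Srf allele on 1 chromosome (heterozygous, the controls) or on both (homozygous). All were hemizygous for Itga8-CreERT2, a Cre recombinase that tamoxifen activates and whose expression follows Itga8, an integrin gene of smooth muscle. Both groups received 5 daily intraperitoneal doses of 33 mg/kg tamoxifen, and the aorta was removed 10 days later. Controls therefore carried the same Cre, the same drug and the loss of 1 Srf copy in recombined cells. The table holds 3 heterozygous libraries (replicates 1, 2 and 3) and 2 homozygous libraries (replicates 2 and 3). Each came from a separately frozen aorta, described as stripped of adventitia and endothelium. Markers of both layers were still counted in every library, as given below. The library of homozygous replicate 1 was not analysed here, and the submitters state that they set a homozygous sample aside as an outlier. The labels used here give no age or sex.

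Complex I, NADH:ubiquinone oxidoreductase, takes electrons from NADH, passes them along iron-sulfur clusters to ubiquinone and pumps protons across the inner mitochondrial membrane. It is L-shaped: a matrix arm holds the NADH site and the clusters, and a membrane arm holds the proton channels. Its core is built from nuclear and mitochondrially encoded subunits, around which lie many accessory subunits. Assembly factors join the intermediates and leave before the enzyme is finished. Medial smooth muscle has fewer mitochondria than heart, skeletal muscle or brown fat, which are the classical tissues of high complex I content.

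Library totals ranged from 26177821 to 34311855 counts. Values are CPM (counts scaled to the library's total over the genes tested, after TMM scaling), and fold changes are homozygous over heterozygous on the log2 scale with a standard error (SE). Srf stood at 56.1, 64.4 and 68.3 CPM in heterozygous and at 45.0 and 38.6 CPM in homozygous libraries (log2 fold change -0.59, SE 0.122, edgeR adjusted p = 0.115). Both homozygous libraries lay below every control. Defining smooth muscle markers were abundant in every library, led by Myh11, the smooth muscle myosin heavy chain (log2 fold change -0.77, SE 0.121, edgeR adjusted p = 0.104). Their summed level was 24115 to 25534 CPM in heterozygous and 14031 to 14680 CPM in homozygous libraries. In such bulk samples, fewer cells of a type and less RNA per cell cannot be told apart.

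All 37 structural subunits had a positive log2 fold change, that is, a higher level in the homozygous libraries, as 47.2% of all 18192 genes tested did. The 8 assembly factors were split into 4 positive and 4 negative. For 34 of the 37 structural subunits both homozygous libraries lay above every heterozygous one, against 17.4% of all genes tested. Among the assembly factors this held for Ndufaf1 and Ndufaf6. The median log2 fold change was 0.49 over the structural subunits and 0.02 over the assembly factors, beside -0.02 over all genes tested. Structural fold changes ran from 0.15 (Ndufa7) to 0.64 (Ndufc1), which is 1.11 to 1.56 times the heterozygous level.

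No single member passed the threshold of 0.05 on the adjusted p of edgeR's quasi-likelihood test, which called 0% of all genes higher. At an unadjusted p under 0.05 that test gave 28 of the 37 structural subunits and 1 of the 8 assembly factors (Ndufaf1) as higher and 0 members as lower, against 9.04% higher and 6.75% lower over all genes. DESeq2 called 14 structural subunits higher and 0 assembly factors, against 3.03% of all genes higher and 2.23% lower, and limma-voom called 0 members (0% of all genes higher, 0.0055% lower). The edgeR count at an unadjusted p was 17 structural subunits without homozygous replicate 2 (6.47% of all genes) and 14 without homozygous replicate 3 (4.85%). With no filter on low counts edgeR called 21 structural subunits and 0 assembly factors, and also 3.23% of the 30400 genes then tested as higher. Without heterozygous replicate 2 it called Ndufs1 alone of the members (0.76, edgeR adjusted p = 0.0482) and 0.779% of all genes.

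**Figure D1:**
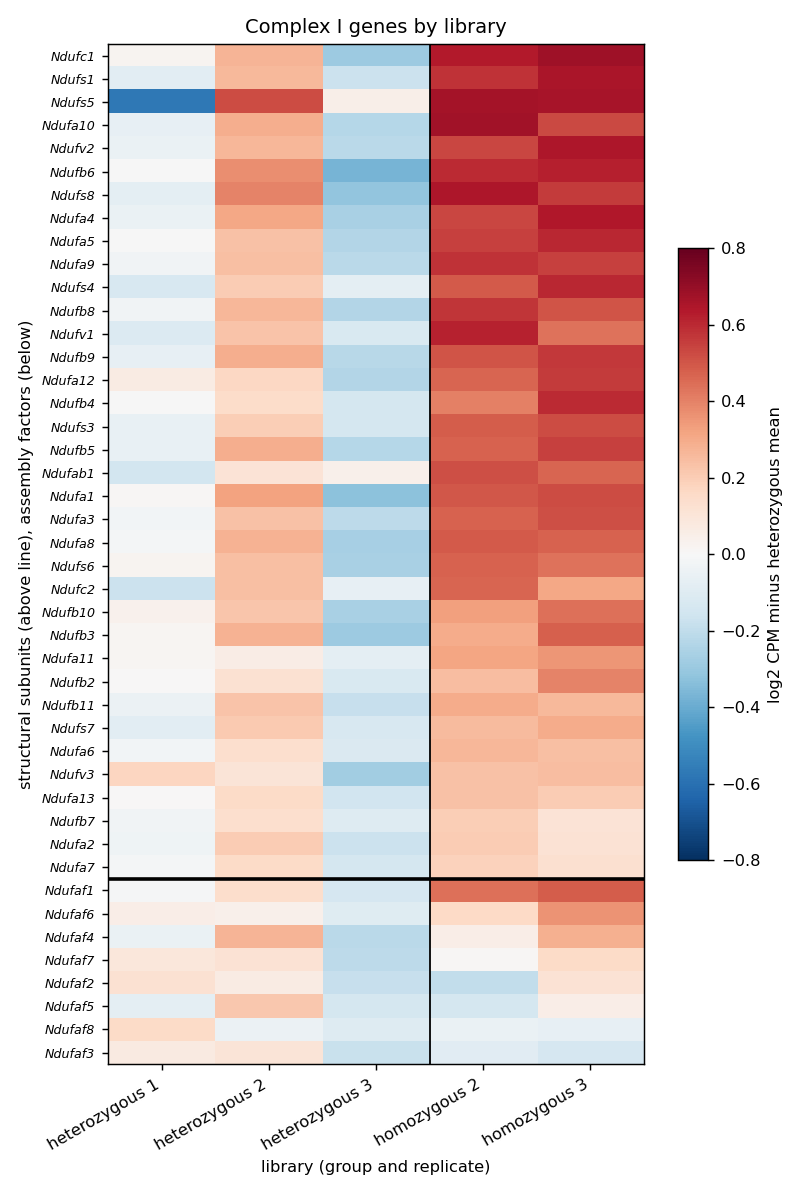
Log2 CPM of 44 complex I genes (rows, structural subunits above the black line and assembly factors below) in each library (columns), minus the gene's heterozygous mean. The 2 homozygous columns are red for the 36 structural subunits shown and mixed for the 8 assembly factors, and heterozygous replicate 2 is the highest control for 35 of these 36.

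The 7 nuclear core subunits together hold the flavin, the iron-sulfur clusters and the ubiquinone site. All 7 were higher in both homozygous libraries than in every control, against 17.4% of all genes tested. Their median log2 fold change was 0.57. Ndufs1 (GRCm38 chromosome 1, 63143596 to 63176833, minus strand, ENSMUSG00000025968.16), the largest subunit and holder of several clusters, stood at 102, 129.5 and 96.3 CPM in heterozygous replicates 1, 2 and 3. In homozygous replicates 2 and 3 it stood at 162 and 171 CPM. The groups did not overlap, and the lowest homozygous library lay above the highest control. Its log2 fold change was 0.61 (SE 0.139, edgeR adjusted p = 0.129, DESeq2 adjusted p = 0.00613).

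Ndufv1, which binds NADH and the flavin, was at 98.5, 125 and 97.6 CPM in heterozygous and at 163 and 144 CPM in homozygous libraries. Ndufv2, its partner with a cluster of its own, was at 50.7, 63.3 and 45.4 CPM and at 76.1 and 82.3 CPM. Here too heterozygous replicate 2 was the highest control and remained below both homozygous libraries. The log2 fold changes of these genes were 0.52 (SE 0.135) for Ndufv1 and 0.58 (SE 0.145) for Ndufv2, with edgeR adjusted p of 0.152 and 0.146.

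Ndufs3, a core subunit without a cluster, was at 34.9, 41.8 and 33.1 CPM in heterozygous and at 50.9 and 52.2 CPM in homozygous libraries. Ndufs8, which holds a pair of clusters on the path to ubiquinone, was at 28.0, 39.1 and 23.8 CPM and at 46.3 and 43.7 CPM. The spread among controls was wide for Ndufs8, so that its log2 fold change of 0.57 had an SE of 0.196 (edgeR adjusted p = 0.236). Ndufs7, which carries the last cluster before ubiquinone, stood apart from the other core subunits with a log2 fold change of 0.27 (SE 0.120, edgeR adjusted p = 0.345). It read 38.6, 47.3 and 37.5 CPM in heterozygous and 48.9 and 50.2 CPM in homozygous libraries, so that homozygous replicate 2 lay just above heterozygous replicate 2. Whether Ndufs7 differs from Ndufs1 in its response was not tested.

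Accessory subunits of the matrix arm are described as a higher and a lower set, divided after their values were seen. Whether the sets differ was not tested. Ndufa9, which sits at the joint of the arms (chromosome 6, 126821721 to 126849136, minus strand), stood at 54.6, 65.7 and 47.9 CPM in heterozygous and at 83.0 and 81.2 CPM in homozygous libraries, with no overlap. Its fold change on the log2 scale was 0.55 (SE 0.137, edgeR adjusted p = 0.143, DESeq2 adjusted p = 0.0188). Ndufa5 (0.56), Ndufs4 (0.54), whose loss causes a Leigh-like encephalopathy in mice, Ndufa12 (0.50) and Ndufs6 (0.44), which holds a zinc ion, had log2 fold changes of similar size. DESeq2 called Ndufa9, Ndufa5, Ndufs4 and Ndufa12 higher, and not Ndufs6, against 3.03% of all genes called higher.

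In the lower set were Ndufa6 (0.25), Ndufv3 (0.23), Ndufa2 (0.15) and Ndufa7 (0.15). Ndufa7 was at 35.8, 40.3 and 32.8 CPM in heterozygous and at 41.1 and 39.6 CPM in homozygous libraries. Ndufa2, which has a thioredoxin-like fold, was at 37.1, 43.8 and 33.7 CPM and at 43.8 and 41.1 CPM. The groups overlapped in both genes: homozygous replicate 3 of Ndufa7 and both homozygous libraries of Ndufa2 lay below heterozygous replicate 2, homozygous replicate 2 of Ndufa2 by less than the rounding. Ndufv3 was at 64.3, 61.3 and 47.0 CPM in heterozygous and at 67.1 and 67.7 CPM in homozygous libraries, and heterozygous replicate 3 alone was far below the others. Its log2 fold change was 0.23 (SE 0.141, edgeR adjusted p = 0.490) and became 0.12 without that library.

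The list of membrane arm accessory subunits had 20 accessory subunits, of which 19 were matched. Both homozygous libraries lay above every control for 18 of the 19, against 17.4% of all genes tested, and the median log2 fold change was 0.48. Ndufc1 (chromosome 3, 51404677 to 51408988, minus strand), a small single-pass protein, had the highest value of all members. It was at 19.0, 22.7 and 15.3 CPM in heterozygous and at 29.2 and 30.04 CPM in homozygous libraries, and the groups did not overlap. The log2 fold change was 0.64 (SE 0.161, edgeR adjusted p = 0.146, DESeq2 adjusted p = 0.0200). Ndufa10, related to nucleoside kinases, stood at 69.5, 89.2 and 62.2 CPM and at 116 and 105 CPM (0.58, SE 0.157). DESeq2 called 3 of the 19 higher, against 3.03% of all genes. These were Ndufc1, Ndufa10 and Ndufb8, the last at a log2 fold change of 0.52.

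At the low end were Ndufb7, Ndufa13 and Ndufb11. Ndufb7, one of the subunits with paired cysteine motifs that face the intermembrane space, was at 37.7, 42.2 and 35.7 CPM in heterozygous and at 44.1 and 41.5 CPM in homozygous libraries, which overlapped (0.15, SE 0.103). Ndufa13, also known as GRIM-19, was at 58.6, 65.0 and 52.7 CPM and at 68.8 and 67.5 CPM (0.21, SE 0.109). An opposite-strand neighbour, Tssk6, overlaps 29.98% of its exonic bases, and its reads may be mixed with those of Ndufa13 since the strand setting of the counting is not given in the sources used here. Ndufb6 (0.58, SE 0.195) is likewise uncertain, with 39.0% of its exonic bases under the opposite-strand gene Smim27, and Ndufb4 (0.50, SE 0.154) shares 33.37% of its 100-base words with Ndufb4c. Leaving out Ndufa13, Ndufb6 and Ndufb4 left 31 of 34 structural subunits higher without overlap, against 17.4% of all genes tested, and a median of 0.49. These 34 still hold members just under the limit of 20%. Ndufs3 and Ndufs5 share 19.85% and 19.79% of their words with other genes. In Ndufb9, 19.5% of the exonic bases overlap a gene on the same strand. Ndufa1 and Ndufb11, the members on the X chromosome, had log2 fold changes of 0.48 (SE 0.176) and 0.27 (SE 0.129). Ndufb1-ps, outside the rule, gave 0.40 (SE 0.179) with overlapping libraries.

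Ndufs5 was the member whose controls disagreed most. It stood at 4.77, 10.1 and 7.32 CPM in heterozygous replicates 1, 2 and 3 and at 11.2 CPM in both homozygous libraries (log2 fold change 0.59, SE 0.283, edgeR adjusted p = 0.372). Without heterozygous replicate 1 its log2 fold change was 0.36, and without replicate 2 it was 0.91. Of the 100-base words of its longest transcript, 19.79% also occur in BC002163, a near copy of this gene. BC002163 had 241 counts in heterozygous replicate 1, where Ndufs5 had 155, against 29 to 44 counts in the other 4 libraries. Summed over both genes the libraries read 12.2, 11.3 and 8.47 CPM in heterozygous and 12.8 and 12.5 CPM in homozygous replicates, a log2 ratio of the means of 0.25. The value of Ndufs5 on its own is therefore uncertain, and BC002163 was chosen after its values were seen.

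Ndufab1 and Ndufa4 were in neither arm list. Ndufab1, the mitochondrial acyl carrier protein, which is part of both arms and also serves lipoic acid and iron-sulfur cluster synthesis, was at 24.0, 28.7 and 27.5 CPM in heterozygous and at 38.2 and 36.9 CPM in homozygous libraries. Its controls lay close together, and it had the lowest edgeR adjusted p of all members (0.116) at a log2 fold change of 0.49 (SE 0.106). In Ndufab1 the lowest control was heterozygous replicate 1, while replicate 3 was the lowest control in 33 of the 37 structural subunits. Ndufa4, counted with complex IV, stood at 69.3, 89.2 and 60.2 CPM and at 104 and 112 CPM (0.57, SE 0.163). Without Ndufa4 the structural median was still 0.49.

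**Figure D2:**
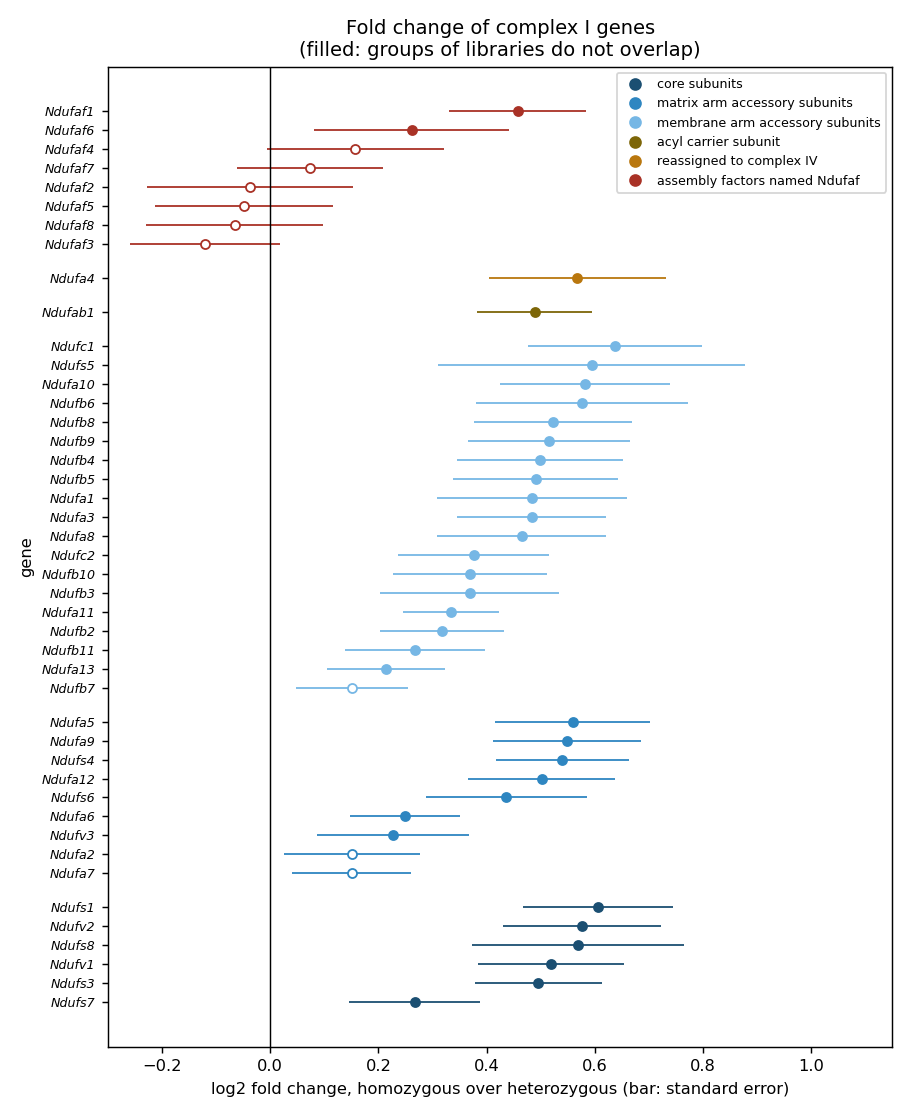
Log2 fold change (homozygous over heterozygous, x axis) of 44 complex I genes with its standard error (bars), grouped by role; filled points mark genes whose homozygous libraries all lie above the heterozygous ones. Of the 36 structural subunits shown, 33 are filled and all lie to the right of 0, from 0.15 to 0.64, while 2 of the 8 assembly factors are filled.

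Of the 8 Ndufaf assembly factors, Ndufaf1 and Ndufaf6 lay above every control in both homozygous libraries, and the other 6 did not. The share over all genes tested was 17.4%. Ndufaf1 (chromosome 2, 119655446 to 119662827, minus strand), a member of the membrane-bound assembly complex with Ecsit, Acad9 and Tmem126b, had the highest fold change of the 8. It stood at 10.2, 11.3 and 9.31 CPM in heterozygous and at 13.9 and 14.3 CPM in homozygous libraries, with no overlap. Its log2 fold change was 0.46 (SE 0.126, edgeR adjusted p = 0.167, DESeq2 adjusted p = 0.0709). Ndufaf6 stood at 3.35, 3.32 and 3.02 CPM and at 3.61 and 4.15 CPM (0.26, SE 0.180), also without overlap but at few counts.

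In the other 6 assembly factors the libraries of the groups overlapped. Ndufaf4, which works with Ndufaf3 on the ubiquinone-binding module, read 15.8, 19.8 and 14.2 CPM in heterozygous and 17.0 and 20.03 CPM in homozygous libraries (0.16, SE 0.163). Ndufaf3 read 10.5, 10.8 and 8.87 CPM and then 9.40 and 9.15 CPM, the lowest fold change of all members (-0.12, SE 0.138, edgeR adjusted p = 0.725). Both homozygous libraries of Ndufaf3 lay between heterozygous replicate 3 and the other controls. Ndufaf7, a methyltransferase of the mitochondrial matrix, gave 0.07 (SE 0.135), with 14.8 and 16.3 CPM in homozygous libraries around the highest control of 15.95 CPM.

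Ndufaf5, which hydroxylates Ndufs7, read 7.56, 9.28 and 7.24 CPM in heterozygous and 7.25 and 8.29 CPM in homozygous libraries (-0.05, SE 0.165). Its partner Ndufaf8 was at 5.75, 5.01 and 4.81 CPM and at 4.98 and 4.95 CPM (-0.07, SE 0.164). In both genes the homozygous libraries lay inside the range of the controls. Ndufaf2, a paralog of Ndufa12, gave -0.04 (SE 0.190), against 0.50 for Ndufa12 itself. Transcripts of other genes share 80.52% of the 100-base words of Ndufaf2, and an opposite-strand gene covers 65.65% of its exonic bases, so its value is uncertain. The signs of Ndufaf2, Ndufaf3, Ndufaf5, Ndufaf7 and Ndufaf8 turned under at least 1 alternative.

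The contrast between the classes can also be put as a ratio for each library, taken from the same CPM values. Summed CPM of structural subunits over summed CPM of assembly factors was 20.4, 22.8 and 21.3 in heterozygous replicates 1, 2 and 3 and 28.8 and 26.1 in homozygous replicates 2 and 3. This ratio does not depend on the scaling of a library. Both homozygous ratios lay above the 3 control ratios. The difference of the class medians, 0.47 on the log2 scale, ranged from 0.37 to 0.54 over all alternatives. The median SE of the log2 fold change was 0.16 for the assembly factors and 0.14 for the structural subunits. Among all 4608 genes in the CPM range of the assembly factors (3.49 to 17.4) the median log2 fold change was 0.02, and among the 9429 genes in the range of the structural subunits it was -0.04.

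Complex I assembly factors of other names were intermediate. Of 11 listed genes 10 were tested, with a median log2 fold change of 0.19. Both homozygous libraries lay above every control in 5 of the 10, against 17.4% of all genes tested. Foxred1, an oxidoreductase of complex I assembly, stood at 27.7, 32.3 and 24.8 CPM in heterozygous and at 40.0 and 37.9 CPM in homozygous libraries (0.46, SE 0.125). It was the 1 gene of this list that DESeq2 called (adjusted p = 0.0498, against edgeR adjusted p = 0.162). Nubpl, which delivers iron-sulfur clusters to complex I, gave 0.38 (SE 0.152). The partners of Ndufaf1 gave 0.21 (Acad9, SE 0.0963), 0.23 (Ecsit, SE 0.129), -0.02 (Tmem126b, SE 0.144) and 0.07 (Timmdc1, SE 0.110).

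The core subunits encoded in mitochondrial DNA were higher in the homozygous mean as well, but not in the same library order. Of 7 genes 5 were tested, with a median log2 fold change of 0.61. At an unadjusted p under 0.05 edgeR gave all 5 as higher (9.04% of all genes), and adjusted 0. The libraries were made from poly(A) RNA. mt-Nd4l and mt-Nd3 had 0 and 1 to 4 counts per library, and share 98.48% and 97.59% of their words with other genes. The cause of these low counts was not tested. mt-Nd1 stood at 869, 999 and 1418 CPM in heterozygous and at 1704 and 1601 CPM in homozygous libraries. mt-Nd6, the 1 subunit on the other strand of mitochondrial DNA, stood at 8.55, 10.5 and 12.8 CPM and at 19.4 and 17.9 CPM (0.82, SE 0.171, edgeR adjusted p = 0.115, DESeq2 adjusted p = 0.00311). Between them in level, mt-Nd2 read 236, 297 and 424 CPM and then 583 and 435 CPM (0.67, SE 0.245). For mt-Nd4 (0.58, SE 0.240) and mt-Nd5 (0.61, SE 0.256) homozygous replicate 3 lay below heterozygous replicate 3, so that the groups overlapped. Since mt-Nd4 shares 60.75% of its words with another gene, its value is uncertain. Without homozygous replicate 2 the values were 0.45 for mt-Nd2, 0.35 for mt-Nd4 and 0.36 for mt-Nd5. Heterozygous replicate 3 was the highest control for all 5 of these genes and the lowest control for 33 of the 37 nuclear subunits.

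Nuclear subunits of complexes II to V behaved much as the structural subunits of complex I did: of 37 tested, 33 had both homozygous libraries above every control, and the median log2 fold change was 0.51. Atp5b, the catalytic subunit of ATP synthase, stood at 571, 765 and 528 CPM and at 976 and 928 CPM (0.61, SE 0.166). For the mitochondrial ribosomal proteins (symbols Mrpl or Mrps with a number) the count without overlap was 27 of 74, and the median log2 fold change was 0.16. Over all genes tested 17.4% had both homozygous libraries above every control. No difference between these groups of genes was tested.

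Regulators of mitochondrial genes had a median log2 fold change of 0.09 over 14 genes. Without overlap, 5 of the 14 were above and 2 below, against 17.4% above and 18.2% below over all genes. At an unadjusted p under 0.05 edgeR gave 6 of the 14 as higher, against 9.04% of all genes. DESeq2 called 3 higher, Esrra, Esrrg and Ppargc1b, against 3.03% of all genes. Esrrg, an estrogen-related receptor of oxidative tissues, read 2.98, 3.00 and 2.51 CPM in heterozygous and 5.87 and 5.71 CPM in homozygous libraries (1.03, SE 0.174, edgeR adjusted p = 0.104, DESeq2 adjusted p = 0.000625). Ppargc1b, a coactivator related to Ppargc1a, gave 0.68 (SE 0.175, edgeR adjusted p = 0.150, DESeq2 adjusted p = 0.0208), also without overlap. Ppargc1a, the coactivator of mitochondrial biogenesis, read 15.4, 20.4 and 13.8 CPM in heterozygous and 27.9 and 20.3 CPM in homozygous libraries (0.54, SE 0.201), and homozygous replicate 3 overlapped the controls. Without homozygous replicate 2 its fold change was 0.29. Esrra, an orphan nuclear receptor that binds respiratory chain genes, read 30.7, 34.1 and 31.4 CPM and 43.5 and 40.8 CPM, with no overlap (0.39, SE 0.0935, edgeR adjusted p = 0.135, DESeq2 adjusted p = 0.0273). Nrf1, nuclear respiratory factor 1, gave -0.13 (SE 0.113), and Tfam, which packages and transcribes mitochondrial DNA, gave 0.13 (SE 0.117).

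**Figure D3:**
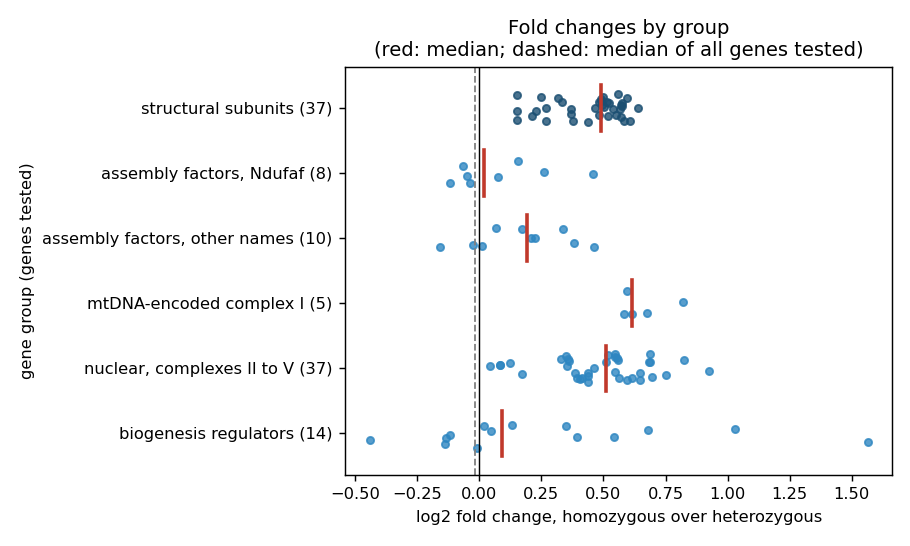
Log2 fold change (homozygous over heterozygous, x axis) of each gene tested, by gene group (rows, number of genes in brackets); the red bar is the median of the group and the dashed line that of all genes. The medians are 0.49 for the structural subunits, 0.02 for the Ndufaf genes, 0.19 for other assembly factors and 0.51 for nuclear subunits of complexes II to V.

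Structural subunits differed among controls nearly as much as between groups, and in a fixed order. Heterozygous replicate 2 was the highest control in 36 of the 37 and replicate 3 the lowest in 33, and 32 had the full order replicate 3, 1, 2. Over all 18192 genes tested, replicate 2 was the highest control in 5707 and replicate 3 the lowest in 7169. The full order held for 3663 of the 18127 genes with counts in every library. Replicate 3 was also the lowest control in 8 of 8 assembly factors, 35 of 37 nuclear subunits of complexes II to V and 56 of 74 mitochondrial ribosomal proteins. The median log2 difference of heterozygous replicate 2 over replicate 3 was 0.44 for the structural subunits, against 0.00 over all genes. From heterozygous replicate 2 to homozygous replicates 2 and 3 the median difference was 0.23 and 0.24, and between the homozygous libraries it was 0.03. Summed CPM of the structural subunits was 1366, 1508 and 1831 in heterozygous replicates 3, 1 and 2 and 2162 and 2148 in homozygous replicates 2 and 3. The mean of the homozygous sums was 1.37 times that of the heterozygous sums.

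Some of the marker lists of other tissues were also higher in the homozygous libraries. The 9 brown adipocyte markers summed to 319, 407 and 769 CPM in heterozygous replicates 3, 1 and 2 and to 1213 and 1125 CPM in homozygous replicates 2 and 3. Summed CPM of the structural subunits had the same order in all 5 libraries. Gene by gene, homozygous replicate 3 lay above homozygous replicate 2 in 20 of the 37 structural subunits and in 1 of the 9 markers. Of these markers 8 of 9 had both homozygous libraries above every control (17.4% of all genes tested), and none was at 0 in a library. Ucp1, the uncoupling protein of brown fat, stood at 152, 337 and 87.5 CPM and at 582 and 569 CPM. The list includes Ppargc1a, which is also among the regulators, and the complex IV isoforms Cox7a1 and Cox8b.

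Adipocyte markers summed to 1543 to 2323 CPM in heterozygous and 2752 to 3000.0 CPM in homozygous libraries, with 6 of 8 above every control. The share over all genes tested, for this list and those that follow, was 17.4%. Skeletal muscle markers ranged more widely, from 10.3 to 685 CPM in heterozygous and from 1015 to 2756 CPM in homozygous libraries, with 10 of 12 above every control. Among them Myh4 and Pvalb were at 0 in at least 1 library. Heterozygous replicate 1 had more of the skeletal muscle markers than replicate 2 (685 and 329 CPM), which is not the order of the complex I subunits. Macrophage markers summed to 233 to 307 CPM and 373 to 504 CPM, with 7 of 7 above every control. Among controls they were lowest in heterozygous replicate 2 and highest in replicate 3, the reverse of the structural subunits. The cardiomyocyte (352 to 538 and 431 to 445 CPM), endothelial (688 to 892 and 362 to 1032 CPM) and adventitial fibroblast sums (3492 to 5435 and 5026 to 5212 CPM) overlapped, and Nppa was at 0 in a library. The most abundant markers of these lists were Fabp4 for adipocytes (0.84, SE 0.190), Myh1 for skeletal muscle (2.69, SE 1.30), Lyz2 for macrophages (0.82, SE 0.156), Ryr2 for cardiomyocytes (0.01, SE 0.176), Vwf for endothelium (-0.25, SE 0.545) and Col1a1 for fibroblasts (0.04, SE 0.213). None was called by edgeR, which called 0% of all genes higher and 0% lower. DESeq2 called Fabp4 (adjusted p = 0.00193) and Lyz2 (adjusted p = 0.000334) higher. By list, DESeq2 called 5 of 9 brown adipocyte, 4 of 8 adipocyte, 5 of 7 macrophage and 1 of 5 tested cardiomyocyte markers higher, against 3.03% of all genes. It called 0 of the skeletal muscle, endothelial and fibroblast markers. Signs turned for Ryr2, Vwf and Col1a1 under some alternatives. The part of these tissues in the difference between the groups was not tested.

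**Figure D4:**
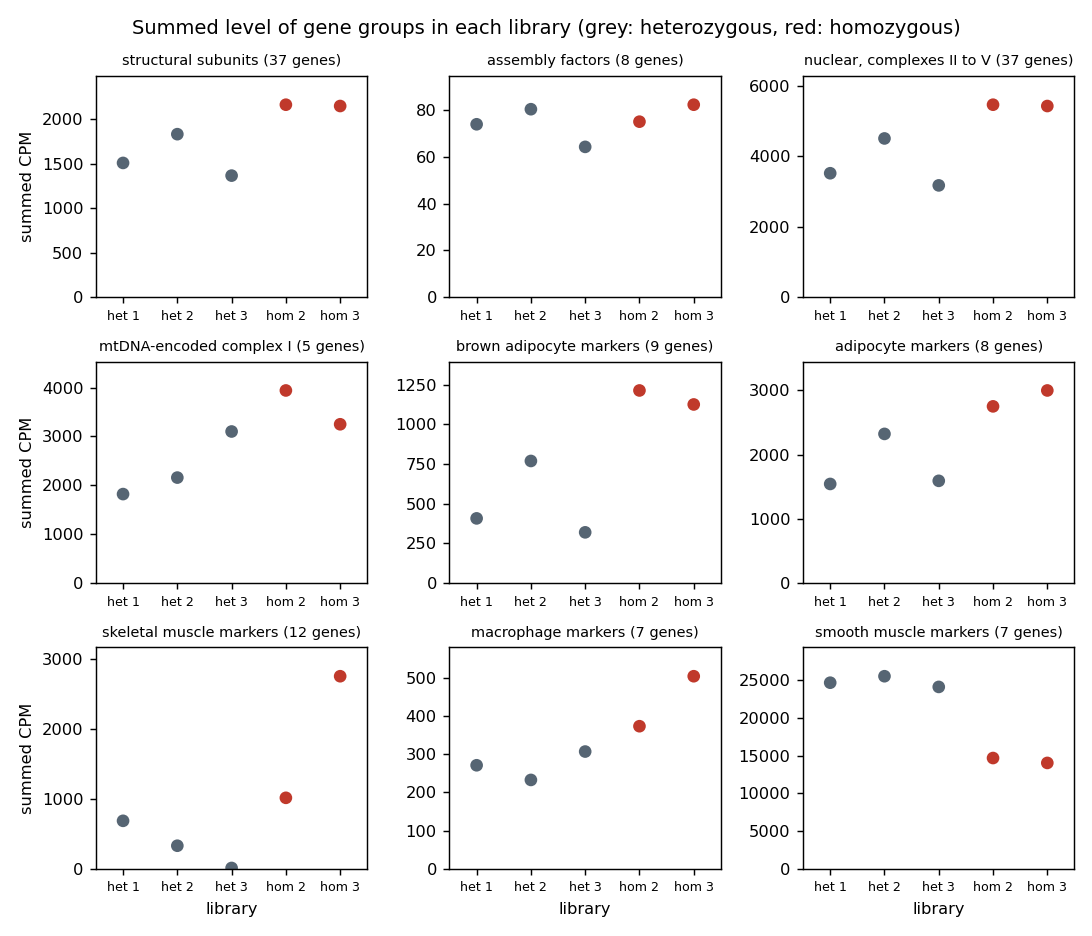
Summed CPM (y axis, from 0) of 9 gene groups in each library (x axis; grey heterozygous, red homozygous). Structural subunits, complexes II to V and brown adipocyte markers share the order heterozygous 3, 1, 2 below homozygous, assembly factors overlap between 64.2 and 82.2 CPM, and smooth muscle markers are lower in both homozygous libraries.

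Levels were also compared between members per kilobase of exonic sequence, averaged over the 5 libraries. Structural subunits had a median of 27.9 CPM per kb, from 3.43 (Ndufb2) to 73.4 (Ndufa1), and assembly factors a median of 4.44 CPM per kb, from 1.54 (Ndufaf2) to 7.86 (Ndufaf1). Subunits of a complex that holds them in nearly equal numbers thus spanned a range of 21.4 times on this scale, in which the exonic length takes in every annotated isoform. Among the 37 structural subunits the rank correlation of the log2 fold change was 0.08 with mean CPM, 0.14 with exonic length and -0.35 with the GC content of the longest transcript. Over all genes tested these were -0.20, -0.02 and -0.03. Genes share libraries and are not independent replicates, so these are descriptions.

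Since the structural subunits moved together, the promoters of the members (RefSeq, GRCm38.p6, 250 bases before to 50 after the start, both strands) were searched for words of factors known for respiratory genes. A promoter was matched for 40 of the 45 members. Background shares count promoters with at least 1 match. The YY1 word AAGATGGC was in 7 of 35 structural promoters (20%) and 1 of 7 of the assembly factors (14.3%), against 2.75% of all 32851 promoters and 3.89% of those of tested genes. In each of the 7 structural promoters it began 23 to 39 bases into the transcript on the gene's own strand. Of such words in all promoters 40.2% lay after the start, where 14.7% of the possible positions in the window lie. The strand of the words in all promoters and the place of the coding start were not examined. The windows below hold the word in capitals, and each is 30 bases long, 5′ to 3′ on the gene's strand. They are shown to place the word against the start of transcripts that differ in their fold change.
Ndufc1 (chr3:51408915-51408944, minus strand): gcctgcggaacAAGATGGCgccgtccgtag
Ndufa9 (chr6:126849097-126849126, minus strand): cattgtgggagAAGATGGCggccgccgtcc
Ndufs4 (chr13:114388045-114388074, minus strand): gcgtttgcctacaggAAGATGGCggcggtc
Ndufs7 (chr10:80249462-80249491, plus strand): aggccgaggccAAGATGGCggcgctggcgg
Ndufaf8 (chr11:120098933-120098962, plus strand): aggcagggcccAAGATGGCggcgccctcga

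Among structural subunits the word was in genes from Ndufc1, the highest at 0.64, to Ndufs7 at 0.27, which is not the lowest. Ndufa7 and Ndufb7, both at 0.15, had promoters without it. Ndufaf8, the assembly factor with the word, was at -0.07. The 7 structural subunits with the word had a median log2 fold change of 0.52, and the 26 with a promoter but without it 0.49. The NRF1 word, a palindrome given in capitals in the next windows, was in 1 structural promoter (2.86%, Ndufa11) and in 2 of 7 assembly factor promoters (28.6%, Ndufaf4 and Ndufaf5), against 0.971% of all promoters and 1.83% of those of tested genes. These windows are shown because the word was found in both classes of members.
Ndufa11 (chr17:56717692-56717721, plus strand): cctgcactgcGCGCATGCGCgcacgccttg
Ndufaf4 (chr4:24897960-24897989, plus strand): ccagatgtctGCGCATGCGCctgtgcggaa
Ndufaf5 (chr2:140170652-140170681, plus strand): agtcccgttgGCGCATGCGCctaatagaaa

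The ERR word AAGGTCA was in 3 structural promoters (8.57%, against 4.72% of all and 3.38% of those of tested genes), those of Ndufb2, Ndufb4 and Ndufs5, and in 0 of the 7 assembly factor promoters. The GABPA word CCGGAAGT was in 1 structural promoter, that of Ndufs3 (2.86%, against 3.89% of all and 7.15% of those of tested genes). The CArG box, the word bound by serum response factor, was found in 0 of the 42 promoters of members, against 1.63% of all promoters and 1.35% of those of tested genes. No match says only that these letters are not in this window, and a match is not a binding site. No words of different factors overlapped in the members' promoters.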

How the data were processed

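Poly(A) RNA of 5 mouse aortae was counted per gene. The authors deposited unnormalized counts for 55453 genes. The submitters' processing notes name STAR 2.7.0f, fastp 0.20.0, Subread 1.6.4 with featureCounts, and the build GRCm38. The kit keeps strand, per the labels' protocols, but the strand setting of the counting is not given in the sources used here, nor is the annotation release. Library totals of 26177821 to 34311855 counts set the precision of low genes such as Ndufaf6.

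Genes were filtered with filterByExpr, scaled by TMM, and 18192 were tested on group alone by the quasi-likelihood F test of edgeR 4.0.16, run in R 4.3.3, with Benjamini-Hochberg adjustment over all of them. The biological coefficient of variation was 15.8%. The p-values set the difference of the groups against the spread between aortae within groups, moderated over all genes. No replicate pair agreed within sampling noise. Alternatives were other scalings, DESeq2 1.42.0, limma-voom (limma 3.58.1), other filters and a block for the replicate number. Further alternatives were a term for the label numbers, mitochondrially encoded genes dropped and each library left out. The label numbers are the digits that end each description, and their meaning is not stated in the labels used here. Omission of members sharing 20% or more of their sequence was added after seeing the data. Scripts were tested on simulated data.

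Gene coordinates and lengths are those of GENCODE release M21 (GRCm38). Members and lists were chosen with earlier results of these data known. The values of 1 core subunit are not reported here, though counts and medians include it. Genes named were the other core subunits, Ndufaf genes, Ndufa9 and Ndufa4, the 3 highest, 3 lowest and 3 most abundant other subunits, mitochondrially encoded subunits, a few regulators and the most abundant marker of each list. Other members, Ndufb1-ps, BC002163, Foxred1, Nubpl, other partners of Ndufaf1, Esrrg and Ppargc1b were added after their values were seen.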

Additional observations from a re-analysis of the deposited data

How the results depend on the processing

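The structural median kept its sign under all 16 alternatives, from 0.41 without heterozygous replicate 3 to 0.69 with a term for the label numbers, where the contrast comes from homozygous replicate 2 and heterozygous replicate 3 only. The assembly factor median was 0.15 under that term and turned negative with the stricter filter (-0.0076), which drops Ndufaf6 and leaves 1 gene without overlap. With each library left out it ranged from -0.051 to 0.12, and the structural median from 0.41 to 0.62. Structural subunits called higher were 14 by DESeq2 (3.03% of all genes) and 21 with no low-count filter (3.23%), and 0 to 1 with each library left out, the 1 without heterozygous replicate 2 (0.779%). Those at an unadjusted p under 0.05 ranged from 14 to 34 and those without overlap from 34 to 37. For the assembly factors the same ranges were 0 to 1 at an unadjusted p, 2 to 4 higher and 0 to 1 lower without overlap, where fewer libraries make overlap less likely. Srf passed with DESeq2 (-0.58) and with no filter (-0.57). The replicate block, with 1 residual degree of freedom, gave a structural median of 0.47, 23 subunits at an unadjusted p under 0.05 and 0 called. Deviations of same-numbered libraries from their group means correlated at r = -0.0099 and -0.194. With 2 homozygous libraries these deviations mirror each other, so the values are not separate checks and cannot decide on pairing. Only 2 numbers are shared, and the numbers were not taken as pairs.

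Signs turned for Ndufaf2 (0.013 on total counts, 0.019 with the block), Ndufaf5 (0.0042 on total counts, 0.0012 with the number term), Ndufaf8 (0.015 with the block, 0.050 with the number term) and Ndufaf3 (0.084 with the number term). Among markers they turned for Ryr2 (-0.093 with the block, -0.26 with the number term) and Vwf (0.56 with the number term). With each library left out Ndufaf2 ranged from -0.20 to 0.11, Ndufaf5 from -0.15 to 0.086, Ndufaf7 from -0.0034 to 0.15 and Ndufaf8 from -0.099 to 0.016, and of the markers Ryr2 ranged from -0.11 to 0.22, Vwf from -1.80 to 0.48 and Col1a1 from -0.14 to 0.18. With the number term mt-Nd1 was 0.26 and Ppargc1a 1.02. The causes were not tested.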
